A study of Mus musculus with 9 samples.

Results

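The miR-122 rows of a table of mature miRNAs from mouse liver were examined, namely mmu-miR-122-5p, mmu-miR-122-3p and, as the last, mmu-miR-122b-3p. They were chosen by name and made up 3 of the 1140 rows of the table. The libraries came from 9 male C57BL/6 mice that were 8 weeks old at the start, 1 liver per library. Sex and age are taken from the study's methods and strain and treatment from the sample labels. Control mice (n = 3) received normal saline intraperitoneally for 8 weeks, TAA mice (n = 3) received the hepatotoxin thioacetamide by the same route for 8 weeks, and recovery mice (n = 3) received that TAA course followed by 8 weeks without injections. The recovery mice were older at death than both other groups, so withdrawal and age cannot be told apart. In the RefSeq annotation of GRCm38.p6 the gene Mir122 lies on chromosome 18 from 65248861 to 65248926, and Mir122b lies on chromosome 18 from 65248863 to 65248921, so that all 59 bases of Mir122b fall within Mir122.

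A miRNA hairpin is cut into a 5p and a 3p arm, of which one is usually loaded into Argonaute and kept while the other is degraded. For miR-122, the most abundant miRNA of hepatocytes, the 5p arm is the one retained. It is known for its roles in hepatic cholesterol and lipid metabolism, in hepatocyte differentiation, and as a host factor of hepatitis C virus. Mir122b is the name of an antisense hairpin at the same place. Whether a lower level in whole liver reflects fewer hepatocytes or less miR-122 in each of them cannot be told apart in bulk tissue.

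The libraries held 9071847 to 12983378 counts. The library of TAA replicate 3 stood apart, since the summed level of 3 skeletal muscle miRNAs (mmu-miR-1a-3p, mmu-miR-133a-3p and mmu-miR-206-3p) was 7681 counts per 1000000 (CPM) there against 6.71 to 38.9 CPM in the other 8 libraries. Without this library the log2 fold change of mmu-miR-122-5p was -1.96 between TAA and control, and 1.72 between recovery and TAA, close to the values with it on the TMM scale described with the first comparison.

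The row mmu-miR-122b-3p repeated mmu-miR-122-5p. In control livers mmu-miR-122-5p had 2797075, 2021855 and 1965773 counts, while mmu-miR-122b-3p had 2796868, 2021618 and 1965540. The TAA group had 1203658, 1037252 and 1097645 counts of mmu-miR-122-5p against 1203489, 1037084 and 1097491 of mmu-miR-122b-3p. The recovery group had 2947507, 2087601 and 2246048 against 2947229, 2087326 and 2245778. The 2 rows thus differed by 154 to 278 counts in every sample, at most 0.0162% of the mmu-miR-122-5p count. Their reads cannot be told apart in these data, the handling of read strand was not stated, and mmu-miR-122b-3p is therefore not treated as a separate measurement. The 5p row of the same antisense name, mmu-miR-122b-5p, did not repeat its counterpart. It held 225 to 460 counts per sample, which was 10.2% to 17.3% of the mmu-miR-122-3p count.

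Rows with near-identical counts occurred elsewhere in the table. Among 572 known miRNAs with at least 20 counts in all, 17 pairs of rows differed by less than 2%, and the RefSeq table gave positions for both rows of 11 of them. In all 11 the mature miRNAs overlapped on opposite strands. Of the 17 pairs placed this way among rows with a position in that search, 11 were near-identical and 6 differed by more. The most abundant pair of each kind, chosen after the counts were seen, is given with its sequences to show that overlap on opposite strands came with repeated counts, as for mmu-miR-122-5p, in some pairs and with unequal counts in others. Sequences are from RefSeq (GRCm38.p6), written 5′ to 3′, and capitals mark the bases that overlap the partner on the other strand.
mmu-miR-24-3p: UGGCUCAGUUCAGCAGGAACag
mmu-miR-3074-5p: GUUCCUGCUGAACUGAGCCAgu
mmu-miR-126a-3p: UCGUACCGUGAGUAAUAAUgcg
mmu-miR-126b-5p: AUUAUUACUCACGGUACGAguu
The first pair overlapped by 20 bases (chr8:84208875-84208896 on the plus strand and chr8:84208873-84208894 on the minus strand) and had 126102 and 125922 counts over the 9 libraries. The second pair overlapped by 19 bases (chr2:26591402-26591423, plus, and chr2:26591399-26591420, minus) and had 714679 and 2037 counts.

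The first comparison asked how the miR-122 arms differed in the fibrotic liver. Compared with control, mmu-miR-122-5p was lower in TAA livers on both scales and within libraries, whereas the result for mmu-miR-122-3p depended on how the libraries were scaled. A few miRNAs took a large share of the counts, so 2 scales are given throughout. The first divides each count by its library's total, the same scale as the TPM values. These totals include mmu-miR-122b-3p, so the reads it shares with mmu-miR-122-5p are repeated in them. The second uses TMM factors, which assume that most miRNAs do not change. Relative to TMM, library totals raised the median log2 fold change of all tested miRNAs from 0.11 to 1.23 in TAA vs control.

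With the repeated row left out of the total, mmu-miR-122-5p made up 27.5%, 24.5% and 24.6% of the counts in controls, 11.9%, 12.9% and 13.6% in TAA livers, and 31.8%, 20.5% and 22.0% in recovery livers. The 95% Wilson intervals extended at most 0.030 percentage points to either side and cover counting error only. It was the most abundant miRNA in control replicate 1 and recovery replicate 1, and in the other 7 libraries it came second to mmu-miR-21a-5p, a miRNA abundant in injured tissue. The share of mmu-miR-21a-5p in the same totals was 25.9% ± 2.87 (SD, n = 3) in control livers, 39.5% ± 3.08 in TAA livers and 26.1% ± 1.84 in recovery livers. Its log2 fold change in TAA vs control was 0.77 on library totals and -0.36 on the TMM scale, so its direction depended on the scale.

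On the TMM scale mmu-miR-122-5p was measured at 271991, 266758 and 261661 CPM in controls and at 74236, 70017 and 73702 CPM in TAA livers. All TAA values lay far below all control values. The log2 fold change was -1.96 (SE 0.06), with a false discovery rate (FDR) of 7.23e-07 in edgeR's quasi-likelihood test. A miRNA was called differentially expressed (a DEM) when its FDR was under 0.05 and it changed at least 2-fold, and 16.7% of the 420 miRNAs tested were DEMs in this direction. By FDR alone 134 of the 420 were higher and 111 lower, so the TMM assumption that most miRNAs do not change is uncertain here. Only 9 tested rows, mmu-miR-122b-3p among them, had a lower log2 fold change. On library totals the change was -0.84 (SE 0.07, FDR 8.32e-05), which keeps the direction and the FDR but stays under a fold change of 2. On that scale 0.952% of the miRNAs were DEMs in this direction. The repeated row in these totals makes the difference smaller. With it in the total, the mean share of mmu-miR-122-5p was 20.3% in control and 11.3% in TAA livers. Without it the means were 25.5% and 12.8%. A test on totals without the repeated row was not run.

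For the passenger arm mmu-miR-122-3p the counts were 3133, 2148 and 2205 in control livers, 2108, 2175 and 2045 in TAA livers, and 2947, 2917 and 2771 in recovery livers. On the TMM scale these were 305, 283 and 294 CPM in controls and 130.01, 147 and 137 CPM in TAA livers, without overlap. Here the arm was a DEM in TAA vs control (log2 fold change -1.17, SE 0.13, FDR 0.000415). On library totals the control samples had 241, 209 and 222 CPM and the TAA samples 186, 240 and 223 CPM. These values overlapped, and the log2 fold change was -0.05 (FDR 0.758), with a 95% interval from -0.38 to 0.28. The totals include the repeated row here too, and the arm was not tested on totals without it.

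**Figure D1:**
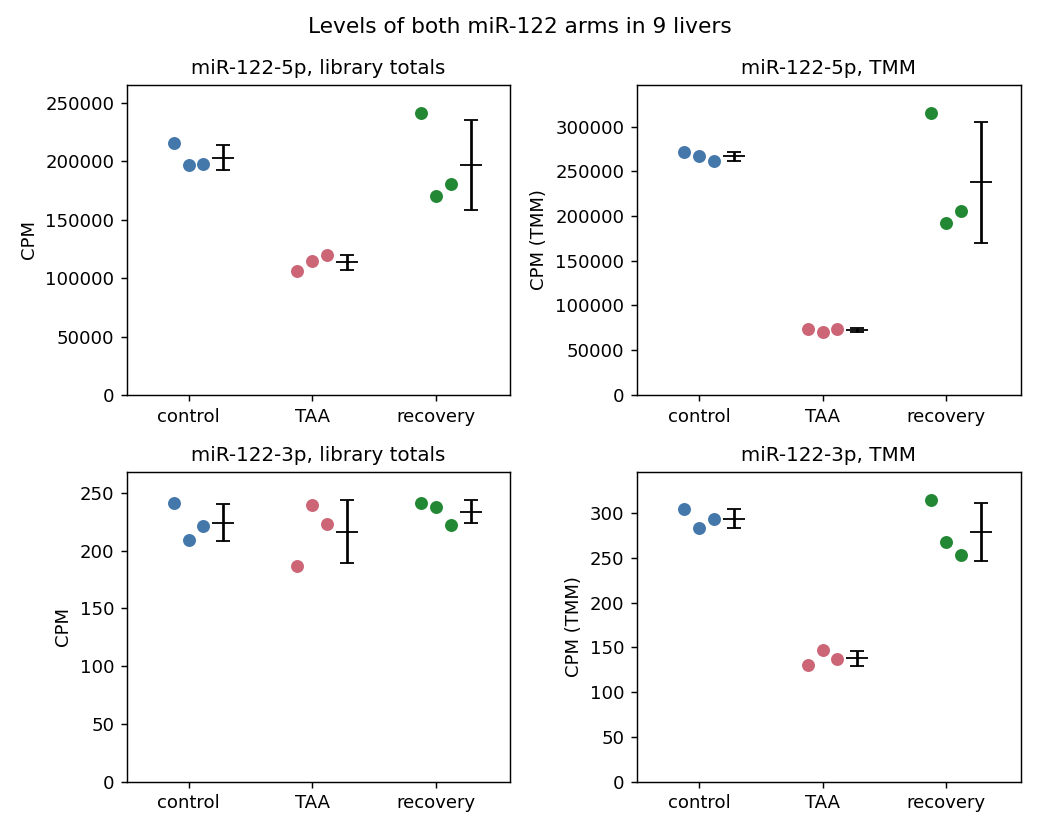
Levels of mmu-miR-122-5p (top, CPM) and mmu-miR-122-3p (bottom, CPM) in each liver on library totals (left) and on the TMM scale (right); points are mice and bars are mean ± SD, n = 3 per group. The 5p arm of the TAA samples lies below both other groups on either scale, whereas the 3p arm of the TAA samples, 186 to 240 CPM on library totals, overlaps the control samples there and not on the TMM scale.

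A comparison within libraries does not depend on scaling. For each other miRNA tested, the ratio of mmu-miR-122-5p to that miRNA was taken in every sample. This ratio was lower in all TAA samples than in all control samples for 376 of 416 miRNAs (90.4%) and overlapped for 39. Over all tested miRNAs the median of the same count was 101.5. A higher count than 376 was found for 3 miRNAs, mmu-miR-29c-3p, mmu-miR-592-5p and mmu-miR-7219-3p, and the only miRNA against which mmu-miR-122-5p was higher in all TAA samples was mmu-miR-592-5p (these are named after their values were seen). For mmu-miR-122-3p the ratio was lower against 310 of 416 miRNAs (74.5%) and higher against 15. Without TAA replicate 3, which was left out after its muscle miRNAs were seen, the counts were 380 and 315.

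The share of the 3p arm among the reads of both arms was also independent of scaling. It was 0.112%, 0.106% and 0.112% in controls, 0.175%, 0.209% and 0.186% in TAA livers, and 0.0999%, 0.140% and 0.123% in recovery livers. The widest 95% Wilson interval ran from 0.201% to 0.218%. All TAA values lay above all values of both other groups. There were 909 ± 28.4 reads of the 5p arm per read of the 3p arm in control livers, 528 ± 47.6 in TAA livers and 842 ± 145 in recovery livers (SD, n = 3). Ligation-based libraries can capture the arms unequally, so these are ratios of reads and not of molecules.

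The arm ratio was tested with limma over all hairpin names with a measured 5p and 3p row. In TAA vs control the log2 ratio of 3p to 5p reads rose by 0.79 for miR-122 (95% interval 0.56 to 1.01, FDR 0.00524). Of the 110 pairs tested, 2.73% were called in this direction, and the median difference over all pairs was -0.01. In recovery vs TAA the difference was -0.66 (95% interval -1.09 to -0.24) and did not pass the threshold (FDR 0.0998), and 0.885% of 113 pairs were called as lower. In recovery vs control it was 0.12 (95% interval -0.23 to 0.48, FDR 0.993), in a comparison where limma called 0% of 104 pairs and 3 pairs had an unadjusted p below 0.05. Fitted without a variance trend, the difference in TAA vs control was the same and its FDR was 0.0559, above the threshold of 0.05. The comparison of recovery and TAA, in turn, was called when recovery replicate 2 was left out (-0.77, FDR 0.0449).

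**Figure D2:**
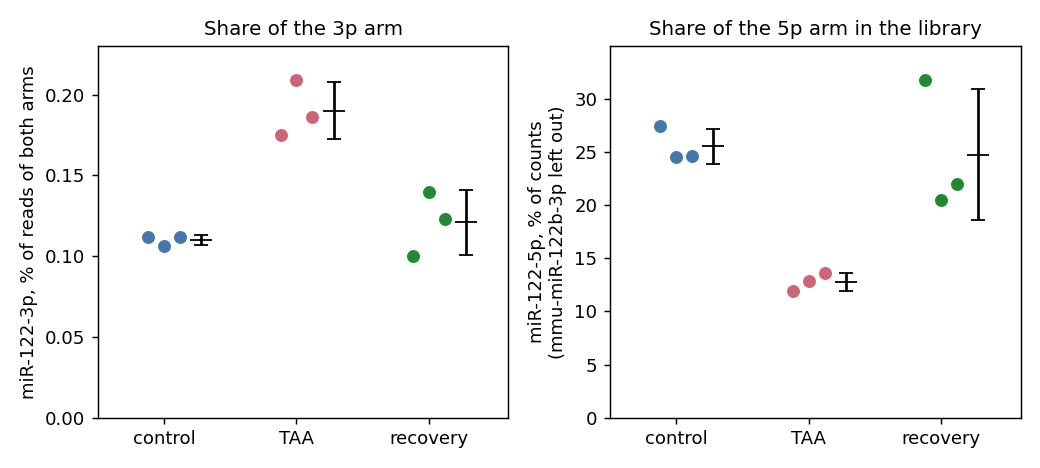
Share of the 3p arm among the reads of both miR-122 arms (left) and share of the 5p arm in the library with mmu-miR-122b-3p left out of the total (right), in percent; points are mice and bars are mean ± SD, n = 3 per group. The TAA samples have the highest 3p shares, 0.175% to 0.209%, and the lowest 5p shares, 11.9% to 13.6%.

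**Figure D3:**
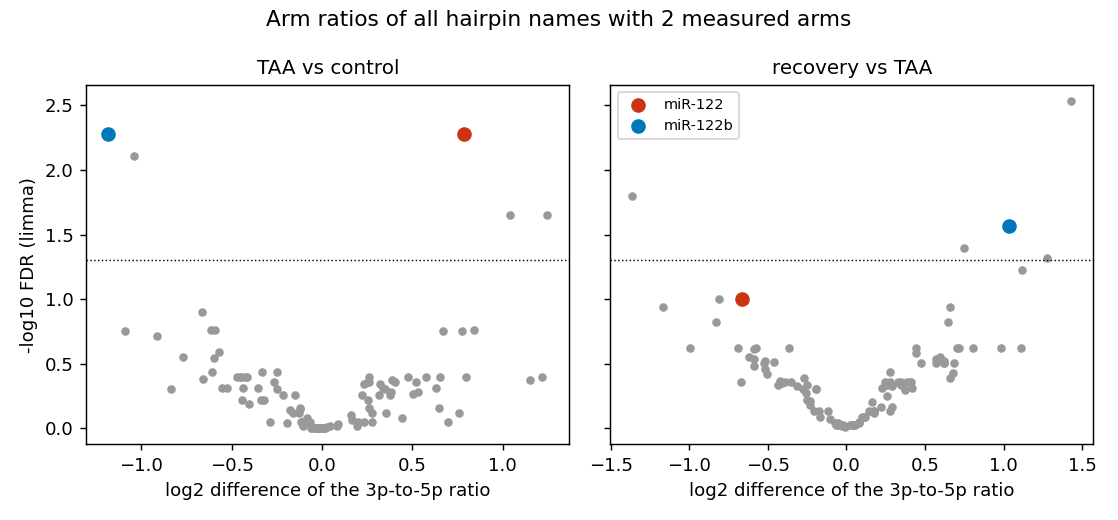
Difference of the log2 ratio of 3p to 5p reads (x axis) against -log10 FDR from limma (y axis) for each hairpin name with both arms measured; the dotted line marks an FDR of 0.05. The point of miR-122 lies at 0.79 in TAA vs control and at -0.66, below the line, in recovery vs TAA. The point of miR-122b pairs mmu-miR-122b-5p with the row that repeats mmu-miR-122-5p.

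The second comparison asked how the arms changed after TAA withdrawal, and it uses the same TAA samples as the first. mmu-miR-122-5p rose in recovery livers on the TMM scale, to 315056, 191752 and 205761 CPM, all above the TAA samples. The log2 fold change in recovery vs TAA was 1.68 (SE 0.19, FDR 0.00054), and 10.2% of the 440 miRNAs tested were DEMs in this direction. On library totals it was 0.80 (SE 0.15, FDR 0.0026), again passing the FDR but not the 2-fold limit, where 0.909% of the miRNAs were DEMs in this direction. These totals again include the repeated row. With that row left out, the mean share of mmu-miR-122-5p was 24.8% in recovery and 12.8% in TAA livers. Against other miRNAs in the same library mmu-miR-122-5p was higher in all recovery samples than in all TAA samples for 365 of 436 (83.7%), while the median count over all tested miRNAs was 77.

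mmu-miR-122-3p was measured at 315, 268 and 254 CPM in recovery livers on the TMM scale, above all TAA samples. Its log2 fold change in recovery vs TAA was 0.99 (SE 0.16, FDR 0.0024), which passed the FDR but fell just short of a fold change of 2. Without TAA replicate 3 it was 1.02 (FDR 0.00564) and the arm was a DEM, as it also was without TAA replicate 2, recovery replicate 2 or recovery replicate 3. By FDR alone 18.4% of the miRNAs were called as higher in recovery. On library totals the recovery samples had 241, 238 and 222 CPM, overlapping both other groups. The log2 fold change on that scale was 0.11 (FDR 0.552), with a 95% interval from -0.25 to 0.47. Within libraries the arm was higher in all recovery samples than in all TAA samples against 284 of 436 miRNAs (65.1%) and lower against 15.

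The third comparison asked what difference from control was left. On the TMM scale the log2 fold change in recovery vs control was -0.20 (95% interval -0.61 to 0.20, FDR 0.613) for mmu-miR-122-5p and -0.11 (95% interval -0.37 to 0.14, FDR 0.669) for mmu-miR-122-3p. Neither passed the test, where 11.3% of 391 miRNAs were DEMs in either direction. The recovery samples were not uniform. Replicate 1 had more mmu-miR-122-5p than every control sample, and replicates 2 and 3 had less than every control sample. Without recovery replicate 1 the log2 fold change was -0.44 with an FDR of 0.0153, and without each of the other samples in turn the direction was also negative.

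**Figure D4:**
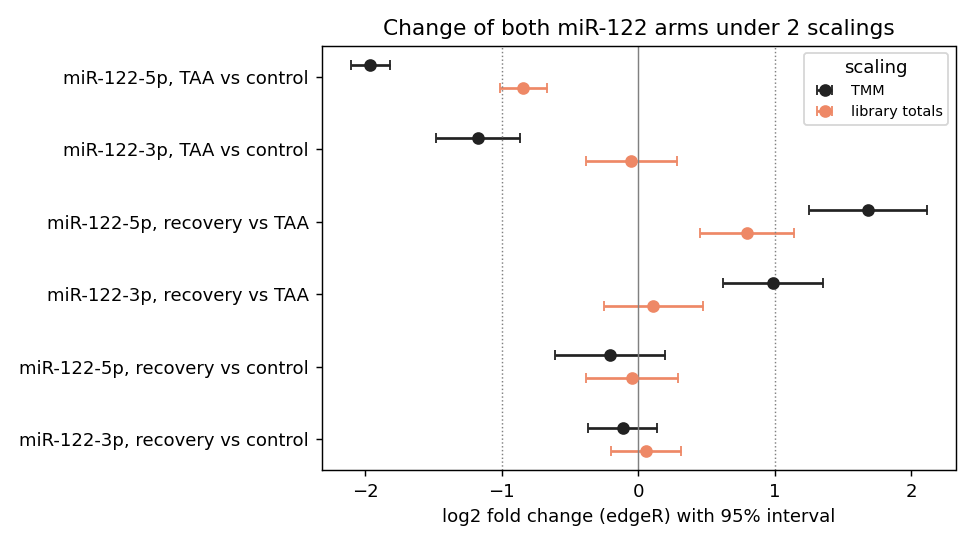
Log2 fold changes of both miR-122 arms in the 3 comparisons with 95% intervals from edgeR, on the TMM scale (black) and on library totals (orange); dotted lines mark a fold change of 2. The 5p arm keeps its direction on both scales, for example -1.96 and -0.84 in TAA vs control, and the intervals of the 3p arm on library totals include 0 in every comparison.

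Other miRNAs that are abundant or enriched in hepatocytes were taken from a list of 10, of which 9 were tested. The list holds mmu-miR-192-5p, mmu-miR-194-5p, mmu-miR-215-5p, mmu-miR-148a-3p, mmu-miR-802-5p, mmu-miR-101b-3p, mmu-miR-378a-3p, mmu-miR-30a-5p, mmu-miR-22-3p and mmu-miR-33-5p, several of which other cell types also express. The list was chosen with earlier results of these data known, so its counts beside those of all miRNAs are descriptions. On the TMM scale 7 of the 9 were lower DEMs in TAA vs control, where 16.7% of the 420 miRNAs tested were. The median log2 fold change of the 9 was -1.24 against 0.11 over all tested miRNAs. mmu-miR-101b-3p had the lowest log2 fold change of the list (-1.84), which is near the value of mmu-miR-122-5p. mmu-miR-215-5p (-0.01) and mmu-miR-802-5p (0.11) were not DEMs. On library totals the 2 last-named miRNAs were the only DEMs of the list and both were higher with TAA (1.12 and 1.22), on a scale where 57.4% of the 420 miRNAs tested were higher DEMs. After withdrawal, 6 of the 9 were higher DEMs than with TAA on the TMM scale, where 10.2% of the 440 miRNAs tested were. Without TAA replicate 3 this number was 5. With all samples, the 6 included mmu-miR-215-5p (1.12), which was not a DEM in TAA vs control. mmu-miR-378a-3p (0.96) and mmu-miR-22-3p (0.94), lower DEMs with TAA, stayed under the 2-fold limit. The median log2 fold change of the 9 was 1.12 against -0.12 over all tested miRNAs. On library totals 0 of the 9 were DEMs in recovery vs TAA, on a scale where 0.909% of all miRNAs were higher DEMs. Their median there was 0.25 against -0.98 over all tested miRNAs.

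The count of mmu-miR-122-5p was also set against the geometric mean of these 10 miRNAs in the same library. The log2 ratio was 7.54, 7.23 and 7.42 in controls, 6.28, 6.51 and 6.48 in TAA livers, and 7.68, 6.80 and 7.05 in recovery livers. The TAA values lay below all others, with a difference of -0.97 in TAA vs control (exact two-sided permutation p = 0.1) and of 0.75 in recovery vs TAA (exact permutation p = 0.1). With 3 samples per group 0.1 is the lowest p this test can return, so it cannot pass 0.05. Recovery and control overlapped (difference -0.22, exact permutation p = 0.5). The values of this ratio depended on single recovery livers. Without recovery replicate 1 the difference was 0.50 to TAA and -0.47 to control, and without recovery replicate 2 it was 0.94 and -0.032.

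Lists of miRNAs of other cell types were read in the same libraries. In TAA vs control 25% of all miRNAs tested were higher DEMs on the TMM scale, and on library totals 57.4% were, and the counts of each list stand beside these shares. The summed level of 5 biliary epithelial miRNAs of the miR-200 family was 430 to 577 CPM in control livers, 5441 to 7927 CPM in TAA livers and 950 to 1255 CPM in recovery livers on library totals, and 5 of 5 were higher DEMs in TAA vs control on both scales. The 5 leukocyte miRNAs summed to 145 to 160 CPM, 435 to 518 CPM and 112 to 194 CPM in the same order, with 2 of 5 as higher DEMs on the TMM scale and 5 of 5 on library totals. Of 5 stellate cell and fibroblast miRNAs, 3 were higher DEMs on the TMM scale and 4 on library totals. They summed to 19241 to 24643 CPM, 29450 to 64191 CPM and 16755 to 31359 CPM on library totals in the same order. On the TMM scale the sums overlapped, with 25482 to 31112 CPM in control and 18034 to 39509 CPM in TAA livers. On that scale mmu-miR-143-3p (log2 fold change -0.02) and mmu-miR-145a-5p (-0.25) were not DEMs in TAA vs control. The lists had no member at 0 in all samples of a group, and their part in the miR-122 values was not tested. The endothelial pair mmu-miR-126a-3p and mmu-miR-126a-5p had log2 fold changes of -0.81 to -0.55 on the TMM scale and of 0.31 to 0.58 on library totals, and neither was a DEM on either scale. The 3 red cell miRNAs summed to 583 to 1011 CPM, 337 to 750 CPM and 252 to 552 CPM on library totals in control, TAA and recovery livers, so the recovery livers lay below the control livers. On the TMM scale they summed to 789 to 1339 CPM, 206 to 461 CPM and 329 to 622 CPM in that order. On that scale 1 of 3, mmu-miR-451a, was a lower DEM in TAA vs control (-1.71, FDR 0.00273), where 16.7% of all miRNAs tested were. It was also lower in recovery vs control (-1.05, FDR 0.0192), where 11.3% were DEMs in either direction. On library totals it was not a DEM in either comparison.

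The miRNAs whose levels ran most like those of the miR-122 arms were ranked by Pearson's r over the 9 libraries, which fall into 3 groups, so that the values are descriptions. On the TMM scale, among 221 miRNAs, the closest to mmu-miR-122-5p were mmu-miR-378a-3p (r = 0.991), mmu-miR-22-3p (0.986), mmu-miR-30c-2-3p (0.986), mmu-miR-29a-3p (0.981) and mmu-miR-378a-5p (0.981). On library totals, among 228 miRNAs, they were mmu-miR-29c-3p (0.929), then mmu-miR-455-3p (0.893), mmu-miR-30c-2-3p (0.887), mmu-miR-592-5p (0.876) and mmu-miR-365-3p (0.856). For mmu-miR-122-3p the closest were mmu-miR-29c-3p (0.990), mmu-miR-194-5p (0.990), mmu-miR-378a-3p (0.985), mmu-miR-194-2-3p (0.983) and mmu-miR-30c-2-3p (0.983) on the TMM scale. On library totals they were mmu-miR-1843b-3p (0.809), mmu-miR-22-3p (0.733), mmu-miR-194-5p (0.723), mmu-miR-378a-3p (0.657) and mmu-miR-378a-5p (0.647).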

How the data were processed

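Total RNA of 9 livers was used for ligation-based small RNA libraries (NEBNext, single-end reads). The authors filtered the reads with custom scripts, mapped them to mm10 and to miRBase mature miRNAs with Bowtie (version 1.3.0 in the submitters' processing notes), and deposited raw read counts per miRNA row. They also deposited TPM values, which equalled the count divided by the column total and multiplied by 1000000. The treatment of multi-mapping reads and of strand was not given in the sources used here.

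Groups came from the treatment labels. The counts of the 6 samples of each comparison were tested with edgeR 4.0.16 (R 4.3.3) after filterByExpr (minimum count 10), with TMM factors, the quasi-likelihood F test and Benjamini-Hochberg adjustment over all tested rows. The SE is the log2 fold change divided by the square root of F. Arm ratios, log2 of (3p + 0.5) over (5p + 0.5), were tested with limma 3.58.1 for hairpin names whose arms both had a mean of at least 10 counts. Named miRNAs were the members, the marker lists, the 5 most alike rows (mean of at least 10 CPM, log2(CPM + 1)) and called arm pairs; the sequence-based part of that rule was not used here. Alternatives were other scalings, DESeq2 1.42.0, limma on log2(TPM + 1), other filters and pseudocounts, removal of mmu-miR-122b-3p, a fit of 9 samples, a replicate block and leaving out each sample. The scripts were tested on simulated data. The members and lists were chosen with earlier results of these data known. Each library is a different mouse by its label, and the p-values measure the spread between these mice.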

Additional observations from a re-analysis of the deposited data

How the results depend on the processing

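On library totals and in limma on log2(TPM + 1) the fold change of mmu-miR-122-5p stayed under 2, with log2 values of -0.84 and -0.84 for TAA vs control. Both keep the repeated row in the totals. Recovery vs TAA gave 0.80 and 0.78, and these FDR values stayed below 0.05. For mmu-miR-122-3p the same alternatives gave -0.051 and -0.056 with TAA, and for recovery vs control they turned the direction, to 0.061 and 0.063. Keeping miRNAs whose mean reached 10 CPM gave -0.97 for mmu-miR-122-3p with TAA. After withdrawal mmu-miR-122-3p passed a fold change of 2 with size factors of DESeq2 (1.05), with TMM factors computed without the miR-122 rows (1.02), in DESeq2 (1.06) and in a fit of 9 samples (1.01). Leaving out each sample moved this value between 0.96 and 1.11, and it passed without TAA replicate 2 or 3 or recovery replicate 2 or 3.

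Without the variance trend the arm ratio difference of TAA to control was 0.79 at an FDR of 0.0559. For recovery vs TAA the difference was -0.66 in all fits with 6 or 9 samples, and it passed the threshold when both arms had to reach a mean of 100 counts (-0.66, FDR 0.0389), in the fit of 9 samples (-0.66, FDR 0.0273) and with the replicate block (-0.66, FDR 0.0344). Leaving out each sample gave -0.77 to -0.53, and it passed without recovery replicate 2 (FDR 0.0449). Deviations of samples with the same replicate number correlated only weakly, between -0.228 and 0.212, which cannot show whether these mice were handled together. The replicate block changed no other call. The ratio to the hepatocyte list was -0.86 in TAA vs control without listed miRNAs under a mean of 100 counts. Counting error was small beside the spread between mice for the 5p share, but for the 3p share of the control livers the Wilson intervals overlapped, so differences between those mice were not detectable at this depth.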

Other observations

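The other called arm pairs of TAA vs control were few. The 3p share of miR-221, a miRNA linked to proliferation and stellate cell activation, rose in the TAA group (log2 difference 1.04, FDR 0.0223), and in recovery vs TAA its difference was -0.59 (FDR 0.243). The pairs of miR-203 (-1.04, FDR 0.00781) and miR-203b (1.25, FDR 0.0223) changed in opposite directions, and they carry antisense names at the same place, as miR-122 and miR-122b do. Their rows mmu-miR-203-5p and mmu-miR-203b-3p were near-identical, with 1770 and 1761 counts in all. This repeated row is the denominator of the miR-203 ratio and the numerator of the miR-203b ratio. The opposite directions of these pairs are therefore not independent results. The pair of miR-122b had a difference of -1.18 (FDR 0.00524) in TAA vs control and of 1.03 (FDR 0.0273) in recovery vs TAA, in which the 3p row is the one that repeats mmu-miR-122-5p. The row mmu-miR-122b-5p itself had log2 fold changes of -0.80 (FDR 0.0148) on the TMM scale and 0.33 (FDR 0.209) on library totals in TAA vs control.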
